A study of Mus musculus with 4 samples.

Results

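The effect of antigen challenge on the wild-type airway lining was read from 2 of the 4 arrays of a mouse study of allergic asthma, chosen by their labels. The first array held RNA of bronchial epithelial cells from challenged wild-type (Pla2g3+/+) mice, and the second that of control wild-type mice. The remaining arrays, challenged and control cells labelled Pla2g3-/-, were set beside them as a separate pair that shares no array with the wild-type pair. Per the labels, mice were sensitised by injecting 10 µg of ovalbumin (OVA), the antigen, with 1.3 mg of alum on days 0 and 14, and then inhaled a 1% OVA aerosol for 30 min on each of days 26, 27 and 28. Lungs were taken 3 h after the challenge and the epithelial cells were isolated from them. The sources used here do not say what control mice received, nor the age and strain of the animals, and the difference can include an effect of sensitisation as well as of the aerosol. Each array carried RNA pooled from 4 samples, and each group had 1 array, so differences could not be set against a spread between mice and none carries a p-value.

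The conducting airways are lined by secretory club and goblet cells, ciliated cells and the basal cells that renew them. In allergic airways, T helper 2 cells and innate lymphoid cells release interleukins 4, 5 and 13. Interleukin 13 acts on the epithelium through the transcription factor STAT6 and turns on mucus, chitinase-like and resistin-like genes. Epithelial cells in turn release chemokines that draw leukocytes into the airway, and NF-kB is a main driver of the chemokines that attract neutrophils.

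Pla2g3, which encodes group III secreted phospholipase A2 and is the gene targeted in the study, went against the labels. Its brighter probe, on chromosome 11 from 3394109 to 3394168 (mm9), read 254 intensity units in challenged wild-type cells against 239 in wild-type control cells, and 4154 in challenged against 2023 in control cells labelled Pla2g3-/-. The signal was thus high on the arrays labelled as lacking the gene and low on both wild-type arrays. Whether the probe lies in the deleted part is not given, and the wild-type comparison rests on the labels as they stand. Challenge left this probe almost level in wild type (0.22 on the log2 scale), while a second probe gave −1.62. On the 4 arrays 78.7% to 81.5% of probes cleared the scanner's background, and the 75th percentile of signal ranged from 1808 to 1986 intensity units. Signals in the text are processed signals before scaling, and differences are log2 values after each array was scaled to its own 75th percentile, so that 1 is a 2-fold difference. The epithelial label went with bright club, ciliated and basal cell genes. Scgb1a1 gave 426240 units in challenged wild-type cells and 455950 in wild-type control cells. Foxj1 gave 21111 in challenged and 22437 in control wild-type cells, and Krt5 92712 in challenged and 99558 in control wild-type cells. RNA of other cells was present too, with CD45 (Ptprc) and other pan-leukocyte genes on every array. The haemoglobin gene Hba-a1 gave 214410 units in challenged and 286260 in control wild-type cells, brighter than Krt5. The mesenchymal gene Dcn gave 33631 in challenged and 47972 in control wild-type cells, brighter than Foxj1. Summed thymocyte-marker signal was far the highest in control cells labelled Pla2g3-/-, at 62332 units against 8571 to 11535 on the other 3 arrays.

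Of 27746 genes on the array, 23353 had a difference in wild type, 22377 of them measured on both arrays and 976 known only as a bound because 1 array was not well above background. In total 418 genes were at least 2-fold higher in challenged cells (1.79% of the genes measured) and 397 were at least 2-fold lower (1.7%), 3.49% either way. The list counts below are to be read beside these shares. The median over all genes was −0.03, and 89.2% of genes measured on both arrays lay within 0.5 of 0. Repeated spots of the same probe gave an SD of 0.09 for such a difference (330 probes, 95th percentile 0.42), and the scanner's own error had a median of 0.20. These errors cover spots only, not mice, pools, labelling or hybridisation. A 2-fold boundary is arbitrary at this precision, as 69 genes lay between 1 and 1.1 and 76 between 0.9 and 1, with 82 and 100 on the lower side.

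The higher genes reached further than the lower ones, both in size and in brightness. At 4-fold, 83 genes were higher and 55 lower, at 8-fold 15 and 5, and at 16-fold 3 and 1. When genes were sorted by mean signal, the dimmest 25% held 115 higher and 160 lower genes of 5595, while the brightest 25% held 27 higher and 5 lower of 5594. The bright higher genes included secretory products of the epithelium such as Retnla, Clca1, Lcn2 and the complement gene Cfb. Adding a constant of 50 units after normexp background correction shrank the differences of dim genes and left 126 higher and 57 lower genes, and 75 of 123 named genes at least 2-fold different stayed so.

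**Figure D1:**
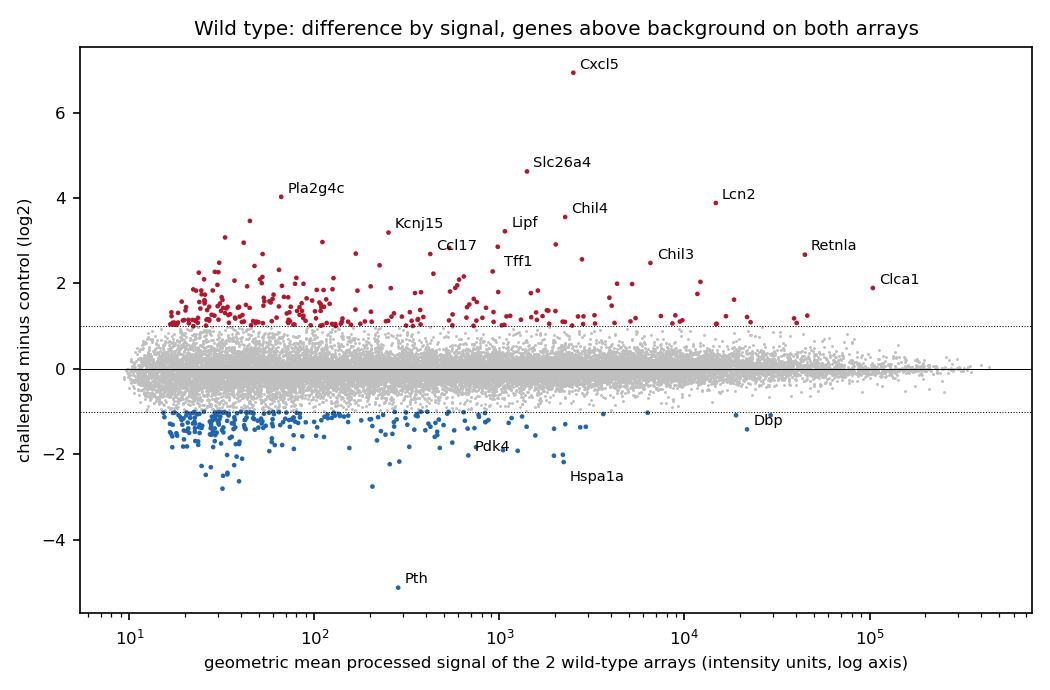
Difference between wild-type challenged and wild-type control (log2, vertical axis) against the geometric mean signal of both arrays (log axis), 1 point per gene above background on both (22377 genes), with dotted lines at 2-fold, red for higher and blue for lower. The spread narrows with signal, Cxcl5 stands highest at 6.93 and Pth lowest at −5.12.

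Chemokines that act on the neutrophil receptor CXCR2 held the furthest upward difference. Of 9 measured ligands and receptors of this axis, 6 were at least 2-fold higher and none lower, against 1.79% and 1.7% of all genes, with a median of 1.27. Cxcl5, the epithelial neutrophil chemoattractant, gave 26473 units in challenged wild-type cells against 238 in wild-type control cells, and 98141 in challenged against 962 in control cells labelled Pla2g3-/-. Both challenged arrays were far above both controls, and the wild-type difference was 6.93 (122-fold, scanner error 0.20), the largest of any gene measured on both arrays, at a probe on chromosome 5 from 91190490 to 91190549 (mm9). Its relatives were dim. Cxcl1 read 61.5 units in challenged against 24.7 in control wild-type cells (1.45), and Cxcl3 read 41.2 units in challenged against 18.8 in control wild-type cells (1.27). Cxcl2 was above background on the challenged array only, at 51.4 units, and was at least 2.51 higher. With the normexp setting these 3 were under 2-fold, at 0.68, 0.50 and 0.61, whereas Cxcl5 kept 6.63. The receptor gene Cxcr2, carried mainly by neutrophils, was higher by 1.99, and the platelet chemokine gene Ppbp differed by 0.04. In the pair labelled Pla2g3-/- the same axis had a median of 3.32 and 8 of 9 genes were at least 2-fold higher.

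Cxcl1, Cxcl2 and Cxcl3 lie together on chromosome 5, and their promoters are shown because they share a letter-for-letter match to an NF-kB motif. The motif, the capital letters in the windows with the fifth letter free, was searched on both strands in the 250 bases before the annotated start, in RefSeq promoters on GRCm38.p6. It was found in 3 of 8 promoters of this list, against 0.37% of 15180 promoters of measured genes. No promoter was available for Cxcl5, so it was not searched. In Cxcl1 it lies 71 to 62 bases before the start, in Cxcl2 97 to 88 and in Cxcl3 73 to 64, all on the plus strand of the gene. The windows are Cxcl1, chr5:90891145-90891204, plus strand, then Cxcl2, chr5:90903779-90903838, plus strand, then Cxcl3, chr5:90786001-90786060, plus strand. Capitals mark the match, and a match describes letters only.
Cxcl1: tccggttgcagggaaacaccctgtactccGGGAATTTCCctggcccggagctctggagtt
Cxcl2: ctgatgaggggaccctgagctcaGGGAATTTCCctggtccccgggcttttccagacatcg
Cxcl3: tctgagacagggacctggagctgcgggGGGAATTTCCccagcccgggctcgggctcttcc

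Several epithelial genes known to respond to interleukin 13 were higher. Of 20 measured type 2 response genes, 7 passed 2-fold upward and 1 downward, against 1.79% and 1.7% of all genes, with a median of 0.31. Slc26a4 encodes pendrin, an anion exchanger of the airway surface that is also a thyroid iodide transporter. It gave 6671 units in challenged wild-type cells against 297 in wild-type control cells, and 465 in challenged against 23.5 in control cells labelled Pla2g3-/-. The differences were alike in size, 4.62 in wild type and 4.19 in the other pair, although signals were lower throughout in cells labelled Pla2g3-/-. Among thyroid genes the iodide transporter gene Slc5a5 was at 1.83, and the thyroglobulin gene Tg was at −2.03; the part of thyroid RNA in the Slc26a4 value was not tested. Retnla, a resistin-like protein (also called FIZZ1), read 107840 units in challenged against 18546 in control wild-type cells and 150560 in challenged against 24368 in control cells labelled Pla2g3-/-. Its differences of 2.68 and 2.52 were nearly equal, and its relative Retnlb was at least 2.92 higher.

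Of the chitinase-like genes, Chil4 and Chil3 differed between the pairs and Chil5 did not. Chil4 (Ym2) gave 7413 units in challenged wild-type cells against 692 in wild-type control cells, and 11552 in challenged against 10063 in control cells labelled Pla2g3-/-. Only the wild-type control array was low, so the difference was 3.56 in wild type and 0.09 in the other pair. Chil3 (Ym1), made by macrophages as well, read 14752 units in challenged against 2903 in control wild-type cells and 26412 in challenged against 18654 in control cells labelled Pla2g3-/-, giving 2.48 and 0.39. Chil5 was at 2.70 in wild type and 3.47 in the pair labelled Pla2g3-/-, and Chil1, named after its values were seen, at 1.99 and 2.31. The eotaxin gene Ccl24 was lower, at −1.35, with 43.9 units in challenged wild-type cells against 123 in wild-type control cells, while Ccl11, the other eotaxin of the list, differed by 0.39. Cytokine-feedback genes Cish (1.02) and Socs1 (1.01) lay at the 2-fold boundary, and Postn, Arg1 and Il13ra2 lay between −0.33 and 0.14.

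Promoter windows of Retnla and of the T-cell chemokine gene Ccl17 are shown because each holds a palindromic STAT6-type motif. The capital letters, with the middle 4 free, form a motif that reads the same on both strands and occurs in 4.98% of promoters of measured genes and in 7.23% of promoters of genes at least 2-fold higher. It was present in 1 of 13 promoters of the type 2 list and 1 of 10 of the CC chemokine list, and in 5.48% of promoters of genes at least 2-fold lower, so these 2 are not typical of their lists. The match lies 145 to 136 bases before the start in Retnla and 154 to 145 in Ccl17. The windows are Retnla, chr16:48842439-48842489, plus strand, and Ccl17, chr8:94810273-94810333, plus strand. Capitals mark the match.
Retnla: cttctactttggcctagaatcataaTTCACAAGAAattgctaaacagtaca
Ccl17: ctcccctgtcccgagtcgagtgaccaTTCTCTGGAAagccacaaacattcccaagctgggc

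Mucus and goblet cell genes shifted upward with small steps. Of 19 measured members, 18 were above 0, and the median was 0.41. In this list 3 were at least 2-fold higher and none lower, against 1.79% and 1.7% of all genes. Tff1, a trefoil peptide that protects mucosal surfaces, gave 2516 units in challenged wild-type cells against 381 in wild-type control cells, a difference of 2.86. Clca1, a secreted regulator of mucus cells that is a standard marker of type 2 airways, read 191740 units in challenged against 56639 in control wild-type cells (1.89). In cells labelled Pla2g3-/- it gave 234680 units in challenged and 140890 in control cells, so the wild-type control array was again the lowest of the 4. Gp2 was higher by 1.14. The gel-forming mucin genes moved less, Muc5ac by 0.86 (678 units in challenged against 410 in control wild-type cells) and Muc5b by 0.30 (141010 units in challenged against 125750 in control wild-type cells). Spdef, the transcription factor of goblet cell differentiation, differed by 0.42. By measured level, both challenged arrays stood above both controls for 16 of the 19 genes, against 18.5% of all genes above background on all 4 arrays. Such an order is favoured for genes already higher in wild type. Mucin O-glycosylation genes followed weakly, with 22 of 27 above 0, a median of 0.25 and none at 2-fold, St3gal4 being furthest at 0.85.

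Acute phase and antimicrobial genes were higher on the whole. Of 25 measured members, 24 were above 0, with a median of 0.67. In this list 9 were at least 2-fold higher and none lower, against 1.79% and 1.7% of all genes. Lcn2, lipocalin 2, which withholds iron from bacteria, gave 54163 units in challenged wild-type cells against 4024 in wild-type control cells, and 101260 in challenged against 9142 in control cells labelled Pla2g3-/-. The challenged arrays were clear of the controls in both pairs (3.89 and 3.36). Saa3, a serum amyloid A made in lung, read 6481 units in challenged against 1203 in control wild-type cells and 13139 in challenged against 492 in control cells labelled Pla2g3-/- (2.57 and 4.63). Saa1 was higher by 1.78 and the calprotectin genes S100a9 and S100a8 by 1.76 and 1.67. Several products of the airway lining hardly differed, with Bpifa1 at −0.05, Reg3g at 0.01 and Wfdc2 at 0.01.

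Neutrophil markers moved with these genes. Of 23 measured neutrophil genes, 9 passed 2-fold upward and 1 downward, against 1.79% and 1.7% of all genes, with a median of 0.58. S100a8, S100a9, Wfdc21 and Cxcr2 are members of both kinds of list. Retnlg, a neutrophil resistin-like gene, gave 1112 units in challenged wild-type cells against 315 in wild-type control cells (1.96), Stfa2l1 was higher by 2.32 and Mmp8 by 1.58. The granule protein genes Camp, Ltf and Elane, picked after their values were seen, were at 0.05, 0.05 and −0.02, unlike Mmp8, which also encodes a granule protein. Summed over the list before scaling, signal was 484060 units in challenged wild-type cells and 512430 in wild-type control cells. The 75th percentiles used for scaling were 1808 and 1986, so these sums do not give a direction. Bright members weigh most in them. The part of neutrophil RNA in the acute phase values was not tested.

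Several monocyte chemokines and the T-cell chemokine gene Ccl17 were higher as well. Among 16 CC chemokine genes with a value, 10 were above 0 and 6 below, with a median of 0.30. In this list 7 passed 2-fold upward and 2 downward, Ccl24 (−1.35) among the latter, against 1.79% and 1.7% of all genes. Ccl17, which attracts T helper 2 cells, gave 1025 units in challenged wild-type cells against 174 in wild-type control cells (2.69), and 8397 in challenged against 357 in control cells labelled Pla2g3-/-. Ccl3 and Ccl4, macrophage inflammatory proteins, were higher by 2.43 and 1.81, and the monocyte attractants Ccl7, Ccl12 and Ccl2 by 2.13, 2.13 and 1.22. Ccl28, an epithelial chemokine, read 2502 units in challenged against 1166 in control wild-type cells (1.24). Ccl1 was above background on the challenged array only, with 139 units, at least 3.98 higher. Each of the 7 higher genes of the list was also at least 2-fold higher in the pair labelled Pla2g3-/-, and the difference there was larger for 12 of the 16.

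The cytokines that define type 2 inflammation were at the edge of detection. Il5 and Il13 were above background on the challenged array only, at 59.6 and 40.2 units, and were at least 2.76 and 2.19 higher. Il4 gave 45.0 units in challenged wild-type cells against 34.1 in wild-type control cells (0.54). The subunits of the interleukin 4 and 13 receptor, Il4ra and Il13ra1, were at 0.08 and −0.17, while the lymphocyte and eosinophil receptor genes Il7r, Il5ra and Il2ra were at −0.95, −0.71 and −0.51. Of 14 measured genes of this list, 2 were at least 2-fold higher and none lower, and the median was 0.05. Among alarmins and other cytokines, 4 of 21 were higher and none lower, with a median of 0.44 that rests on 4 bounds, since the 17 measured on both arrays had 0.18 and the normexp setting gave 0.12. Il1b, the inflammasome cytokine, read 908 units in challenged against 213 in control wild-type cells (2.23), and Tnf read 353 units in challenged against 178 in control wild-type cells (1.13). The epithelial alarmin Il33 was at 0.15 and Il25 at 0.18, and Tslp did not clear background in wild type. Eosinophil granule genes were not higher: Epx did not clear background in wild type and Prg2, at 21.2 units on the control array only, was at least 1.25 lower.

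Interferon-responsive genes lay above 0 in nearly every case, mostly by less than 2-fold. Of 31 measured, 30 were above 0, with a median of 0.51, and 2 were at least 2-fold higher. Cxcl10, a chemokine for T cells, gave 1753 units in challenged wild-type cells against 553 in wild-type control cells (1.80), and Oasl1 was higher by 1.26. Isg15, a ubiquitin-like antiviral protein, read 38470 units in challenged against 23307 in control wild-type cells (0.86), and Ifit3 was at 0.93. Ifi27l2a, at −0.14, was the exception. Both challenged arrays stood above both controls for 22 of the 31 genes, against 18.5% of all genes above background on all 4 arrays. Genes already higher in wild type favour this order. The pair labelled Pla2g3-/- had a median of 0.71.

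Most promoters of this list hold an interferon-response motif, which is why 3 of them are shown. The motif, GAAA followed by any 2 letters and GAAA again, searched on both strands, was found in 13 of 22 promoters (59.1%), against 2.85% of promoters of measured genes. The list is made of interferon-responsive genes, so a high share can follow from its choice. The 13 genes differed by 0.05 to 1.80, with a median of 0.54 against 0.51 for the whole list, so they are not set apart. The motif was in 3.61% of promoters of genes at least 2-fold higher and 6.39% of those of genes at least 2-fold lower. Isg15 has overlapping matches from 78 to 57 bases before the start, Ifit3 has matches on the other strand at 156 to 147 and 122 to 113, and Cxcl10 has a match at 213 to 204. The windows are Isg15, chr4:156200859-156200918, minus strand, then Ifit3, chr19:34583359-34583428, plus strand, and Cxcl10, chr5:92349069-92349119, minus strand. Capitals mark the matches.
Isg15: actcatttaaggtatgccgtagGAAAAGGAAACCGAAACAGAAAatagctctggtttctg
Ifit3: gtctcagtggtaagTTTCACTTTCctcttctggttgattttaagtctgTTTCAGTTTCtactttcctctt
Cxcl10: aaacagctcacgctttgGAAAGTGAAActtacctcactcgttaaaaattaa

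Genes of the unfolded protein response and the integrated stress response, which handle a rising load of secreted protein, showed a similar even shift. Of 41 measured, 36 were above 0, with a median of 0.44, and only Chac1 reached 2-fold (1.13). Xbp1, whose spliced product drives endoplasmic reticulum expansion, gave 94981 units in challenged wild-type cells against 59372 in wild-type control cells (0.81), and Manf was at 0.88. Hspa5, the chaperone BiP, read 74733 units in challenged against 49331 in control wild-type cells (0.73). Amino acid synthesis genes of the ATF4 branch shifted too, Asns by 0.92 and Psat1 by 0.72, while Ddit4 was at −0.39 and Atf4 and Ddit3 were at 0.08 and 0.02. The wild-type control array was the lowest of the 4 for 24 of the 41 genes, against 19.1% of all genes above background on all 4 arrays. That position is favoured for genes already higher in wild type. In the pair labelled Pla2g3-/- the median was 0.35.

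The endoplasmic reticulum stress element, CCAAT and CCACG with any 9 letters between them, searched on both strands, was present in 9 of 35 promoters of this list (25.7%), against 0.15% of promoters of measured genes. The list is made of genes of this response, so a high share can follow from its choice. The 9 genes, Calr, Canx, Creld2, Derl3, Dnajc3, Ero1b, Hsp90b1, Hspa5 and Pdia6, all differed upward, from 0.21 to 0.77 with a median of 0.52. The whole list had 36 of 41 above 0 and a median of 0.44, so these 9 are not set apart. No promoter of the 249 available for genes at least 2-fold higher holds it. The element lies 65 to 47 bases before the start in Hspa5, 162 to 144 in Calr, 126 to 108 in Creld2 and 98 to 80 in Pdia6, on the opposite strand in Calr and Creld2. The windows of these 4 are shown because they hold the element in both orientations: Hspa5, chr2:34772000-34772059, plus strand, then Calr, chr8:84847051-84847111, minus strand, then Creld2, chr15:88819496-88819555, plus strand, and Pdia6, chr12:17266469-17266528, plus strand. Capitals mark the element.
Hspa5: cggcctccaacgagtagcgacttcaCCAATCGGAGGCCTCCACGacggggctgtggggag
Calr: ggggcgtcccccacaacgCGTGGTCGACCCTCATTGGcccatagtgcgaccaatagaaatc
Creld2: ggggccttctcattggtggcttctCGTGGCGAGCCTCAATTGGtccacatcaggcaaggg
Pdia6: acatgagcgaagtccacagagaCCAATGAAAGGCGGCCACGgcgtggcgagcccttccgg

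Oxidative stress genes under NRF2 leaned upward, with 23 of 27 above 0 and a median of 0.22, and 1 at least 2-fold higher. That gene was Slc7a11, the cystine transporter, which gave 44.1 units in challenged wild-type cells against 13.6 in wild-type control cells (1.84), and 0.68 with the normexp setting. The aldo-keto reductase gene Akr1b8 read 42264 units in challenged against 25438 in control wild-type cells (0.87), and Gpx2, a glutathione peroxidase of epithelia, 99820 units in challenged against 67752 in control wild-type cells (0.69). Slc7a11 is shown because its promoter holds the amino acid response letters TGATGNAA on both strands, at 66 to 59 and, reversed, at 47 to 40 bases before the start. The letters occur in 2.63% of promoters of measured genes, and the window is Slc7a11, chr3:50443644-50443703, minus strand.
Slc7a11: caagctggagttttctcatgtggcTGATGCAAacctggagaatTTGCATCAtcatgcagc

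Of 19 NF-kB and feedback genes, 4 were at least 2-fold higher and none lower, against 1.79% and 1.7% of all genes. In this list 13 lay within 0.5 of 0, and the median was 0.26. The 4 were Zc3h12a, an RNase that degrades cytokine transcripts (1.78), Tnip3 (1.1), Socs3 (1.06) and Bcl3 (1.06). Socs3 gave 11863 units in challenged wild-type cells against 6231 in wild-type control cells. Of 27 AP-1, Egr and related genes, 24 were below 0, with a median of −0.23 and none at 2-fold. Fos was at −0.37, Egr1 at −0.31 and the phosphatase gene Dusp1 at −0.74. In the pair labelled Pla2g3-/- the median of this list was 0.52 with 7 genes at least 2-fold higher, and Fos was at 1.09. Heat shock genes had a median of 0.17, and Hspa1a alone of 19 was 2-fold different. It read 996 units in challenged against 4960 in control wild-type cells (−2.18) and 1867 in challenged against 1274 in control cells labelled Pla2g3-/- (0.44), so the wild-type control array stood above the other 3.

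Several clock genes were lower in challenged cells. Of 21 measured, 15 were below 0, with a median of −0.46, and 2 were at least 2-fold lower and 1 higher. Dbp, a transcription factor that is an output of the clock, gave 12716 units in challenged wild-type cells against 37260 in wild-type control cells, and 13654 in challenged against 44220 in control cells labelled Pla2g3-/-. Both challenged arrays were below both controls, with differences of −1.42 and −1.80, and both of its probes had this sign. Ciart, a repressor of the CLOCK-BMAL1 complex, gave 32 units in challenged and 108 in control wild-type cells (−1.62, and −0.63 with the normexp setting), by a probe that the files place on chromosome 10, not on chromosome 3 where RefSeq has the gene, so its value is uncertain. Per2, Per1 and Per3 were at −0.93, −0.86 and −0.81, whereas Nfil3, a repressor that opposes Dbp, read 3879 units in challenged against 1819 in control wild-type cells (1.23). The activator genes Npas2 and Arntl were at 0.77 and 0.60, opposite in sign to the Per genes. Both challenged arrays were below both controls for 13 of the 21 genes, against 26.3% of all genes above background on all 4 arrays. Such an order is favoured for genes already lower in wild type. The labels do not state the hour at which each group was killed.

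Of 17 glucocorticoid and metallothionein genes, 10 were below 0 and 7 above, 2 were at least 2-fold lower and none higher, and the median was −0.16, whereas in the pair labelled Pla2g3-/- 2 were higher and none lower. Pdk4, a kinase that switches off pyruvate oxidation, gave 321 units in challenged wild-type cells against 1435 in wild-type control cells (−2.03), and 330 in challenged against 597 in control cells labelled Pla2g3-/- (−0.96). Angptl4, a lipase inhibitor, read 516 units in challenged against 2122 in control wild-type cells (−1.90), and differed by −0.34 in the other pair. Fkbp5, a standard glucocorticoid target, was at 0.78, opposite to Tsc22d3 at −0.47. Cytochrome P450 and xenobiotic genes had 25 of 32 below 0 with a median of −0.20 and none at 2-fold. Both challenged arrays were below both controls for 18 of them, against 26.3% of all genes above background on all 4 arrays. Genes already lower in wild type favour this order. Adh1 was furthest at −0.81, and Cyp2f2, the main P450 of club cells, was at −0.04. Sterol and fatty acid genes (30 measured, median 0.13) and glycolysis and hypoxia genes (24 measured, median 0.14) held no gene at 2-fold, with Hk2 furthest at 0.94.

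Phospholipase A2 and related lipase genes, the family of the targeted gene, were mostly level. Of 22 measured, 2 were at least 2-fold higher and 1 lower, against 1.79% and 1.7% of all genes, with a median of −0.08. Pla2g4c, a cytosolic phospholipase A2, gave 255 units in challenged wild-type cells against 17.2 in wild-type control cells, and 1549 in challenged against 186 in control cells labelled Pla2g3-/-. Challenged signals exceeded their own controls in both pairs (4.03 and 2.95), and the normexp setting gave 1.95 in wild type. Lipf, gastric lipase, read 3118 units in challenged against 367 in control wild-type cells and 10586 in challenged against 887 in control cells labelled Pla2g3-/- (3.22 and 3.47). Pla2g2d was lower, at −1.20, and Pla2g4a, the main arachidonate-releasing form, was at 0.03. Of 25 prostanoid and leukotriene genes none was at 2-fold, with Alox15 at 0.43, Ptgs2 at 0.20 and Hpgd, which inactivates prostaglandins, at −0.69.

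Among proteases and their inhibitors, 7 of 31 were at least 2-fold higher and 1 lower, against 1.79% and 1.7% of all genes. The higher genes were chiefly stefin A inhibitors, Cstdc4 (2.69), Stfa2l1 (2.32), Stfa2 (1.87) and Stfa1 (at least 1.27), which are near-identical copies whose probes may read each other. Stfa2l1 is also a member of the neutrophil list. Timp1, an inhibitor of matrix metalloproteinases, gave 1450 units in challenged wild-type cells against 779 in wild-type control cells (1.03). Each of the 7 was at least 2-fold higher in the pair labelled Pla2g3-/- as well. Complement genes had 2 higher and 1 lower of 23, with Cfb, a component of the alternative pathway, at 67766 units in challenged against 31328 in control wild-type cells (1.25), C3 at 0.57 and Cfd at −1.59. Collagen and matrix genes had 28 of 28 within 0.5 of 0, and growth factor genes had 2 higher of 27, Inhba at 1.23 and Epgn at 1.04.

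No cell cycle gene reached 2-fold. The 6 subunits of the MCM2-7 helicase, which licenses DNA replication, were at 0.58 to 0.90, with Mcm5 at 3501 units in challenged wild-type cells against 2065 in wild-type control cells. All 15 mitotic genes measured lay below 0, at −0.47 to −0.05, with Mki67 at 1548 units in challenged against 2176 in control wild-type cells (−0.36). In the pair labelled Pla2g3-/- both sets were below 0, the MCM genes at −0.66 to −0.15 and the mitotic genes at −1.02 to −0.30. Summed thymocyte-marker signal in that pair was 11535 units in challenged against 62332 in control cells. The part of thymocyte RNA in the cell cycle values was not tested. The other 4 DNA replication genes lay at −0.02 to 0.34 in wild type, closer to 0 than the MCM genes, and this grouping was made after the values were seen.

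**Figure D2:**
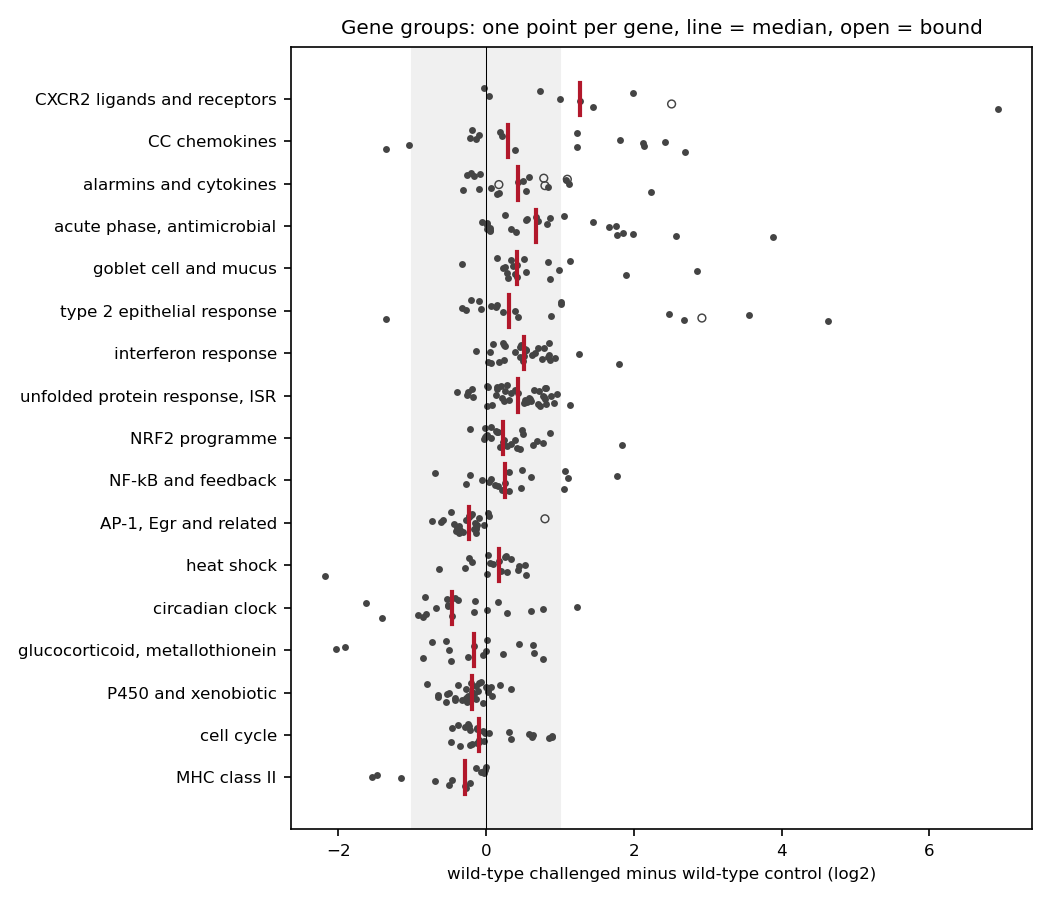
Wild-type challenged minus wild-type control (log2) for the measured genes of 17 lists, 1 point per gene, open where only a bound is known, with the list median as a red line and the range within 2-fold in grey. CXCR2 ligands have the median furthest to the right (1.27), the interferon and unfolded protein response lists lie mostly right of 0, and the clock list lies mostly left of it (−0.46).

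The structural identity of the epithelium was nearly the same on both wild-type arrays. All 10 club cell markers lay within 0.5 of 0, between −0.08 and 0.16, and Scgb1a1 was at 0.04. Of 17 ciliated cell markers, 15 were within 0.5, with Foxj1 at 0.05. The exceptions were Dnah9, at 0.56 by its brighter probe but −0.09 by its other probe, and Spag6. Spag6, a gene of motile cilia, had 81.6 units in control wild-type cells, did not clear background in challenged ones and was at least 3.22 lower. Of 8 basal cell markers 7 were within 0.5, Krt5 at 0.03, while Krt14, a keratin of activated basal cells, was at 0.92 (978 units in challenged against 568 in control wild-type cells). Keratin and junction genes had 24 of 26 within 0.5, with Cldn1 at least 1.71 higher. Ion channel genes had 18 of 23 within 0.5 and 1 at 2-fold, the potassium channel gene Kcnj15, which gave 725 units in challenged wild-type cells against 87.1 in wild-type control cells (3.19). Alveolar type 2 and type 1 markers held none at 2-fold, with Sftpc at 0.67, Sftpb at −0.75 and Ager at −0.50.

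Lymphocyte markers were lower in challenged wild-type cells, and B and plasma cell genes had the lowest median of the 20 marker lists. Of 21 B and plasma cell genes, 13 were at least 2-fold lower, against 1.7% of all genes, and none higher. Their median was −1.15 (−0.73 with the normexp setting). The 22 with a value in the pair labelled Pla2g3-/- had a median of 0.12, and none was 2-fold different. Ms4a1 (CD20), a B-cell surface protein, read 869 units in challenged against 2812 in control wild-type cells and 1125 in challenged against 929 in control cells labelled Pla2g3-/-. The wild-type control array was the highest of the 4 for 18 of the 21 genes, and the wild-type challenged array was the lowest for 8. Over all genes above background on all 4 arrays these shares were 29.6% and 17.9%. Both are favoured for genes already lower in wild type. The class II genes followed, with 14 of 14 below 0, a median of −0.28 and 3 at least 2-fold lower, and the wild-type control array was again the highest for 11 of them. The 3, H2-Oa (−1.55), H2-Ob (−1.47) and H2-DMb2 (−1.15), are known mainly from B cells, and Cd74 was at −0.51. Class II genes had a median of 0.27 in the pair labelled Pla2g3-/-, with 2 at least 2-fold higher and none lower. In these bulk samples fewer cells of a type and less RNA per cell cannot be told apart.

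T and NK cell genes had 4 of 29 at least 2-fold lower, against 1.7% of all genes, and none higher, with a median of −0.53. Cd3d read 278 units in challenged wild-type cells against 732 in wild-type control cells. Thymocyte genes had 1 of 15 lower, and pan-leukocyte genes 15 of 16 below 0 with a median of −0.50. The wild-type challenged array was the lowest of the 4 for those 15, against 17.9% of all genes above background on all 4 arrays. That position is favoured for genes already lower in wild type. Macrophage genes had a median of −0.03, and Chil3 and Marco moved apart. Marco, a scavenger receptor of macrophages, read 1046 units in challenged against 4631 in control wild-type cells (−2.01) and 6836 in challenged against 1657 in control cells labelled Pla2g3-/- (1.94). Dendritic cell genes had 1 of 10 lower, Ccr7 at −1.24, and eosinophil, mast cell and basophil genes 1 of 18. Endothelial genes had 1 of 20 higher, Sox17 at 1.1, and mesenchymal genes none of 17. Muscle and nerve genes had 1 higher and 1 lower of 17. Of all genes, 1.79% were higher and 1.7% lower. Counts of 0 or 1 in lists this small cannot be told from those shares. The part of these cell types in the gene group values was not tested.

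Some markers of tissue around the airway also differed. Pth, the parathyroid hormone gene, gave 45.9 units in challenged wild-type cells against 1754 in wild-type control cells, and 148 in challenged against 375 in control cells labelled Pla2g3-/-. The wild-type control array was the highest, and the difference of −5.12 was the largest downward one among genes measured on both arrays. Tg, thyroglobulin, read 929 units in challenged against 4172 in control wild-type cells (−2.03), and 3 of 12 thyroid and parathyroid genes were at least 2-fold lower and 2 higher, those being Slc26a4 and the iodide transporter gene Slc5a5 (1.83). Chga, a gene of neuroendocrine and parathyroid cells, was at −1.40, while the neuroendocrine gene Calca was at 0.68. Adipocyte genes had 3 of 13 lower, among them Cfd and Car3, and Adipoq did not clear background in wild type. Red cell and platelet genes had 2 of 14 lower, with Ahsp at −1.19.

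**Figure D3:**
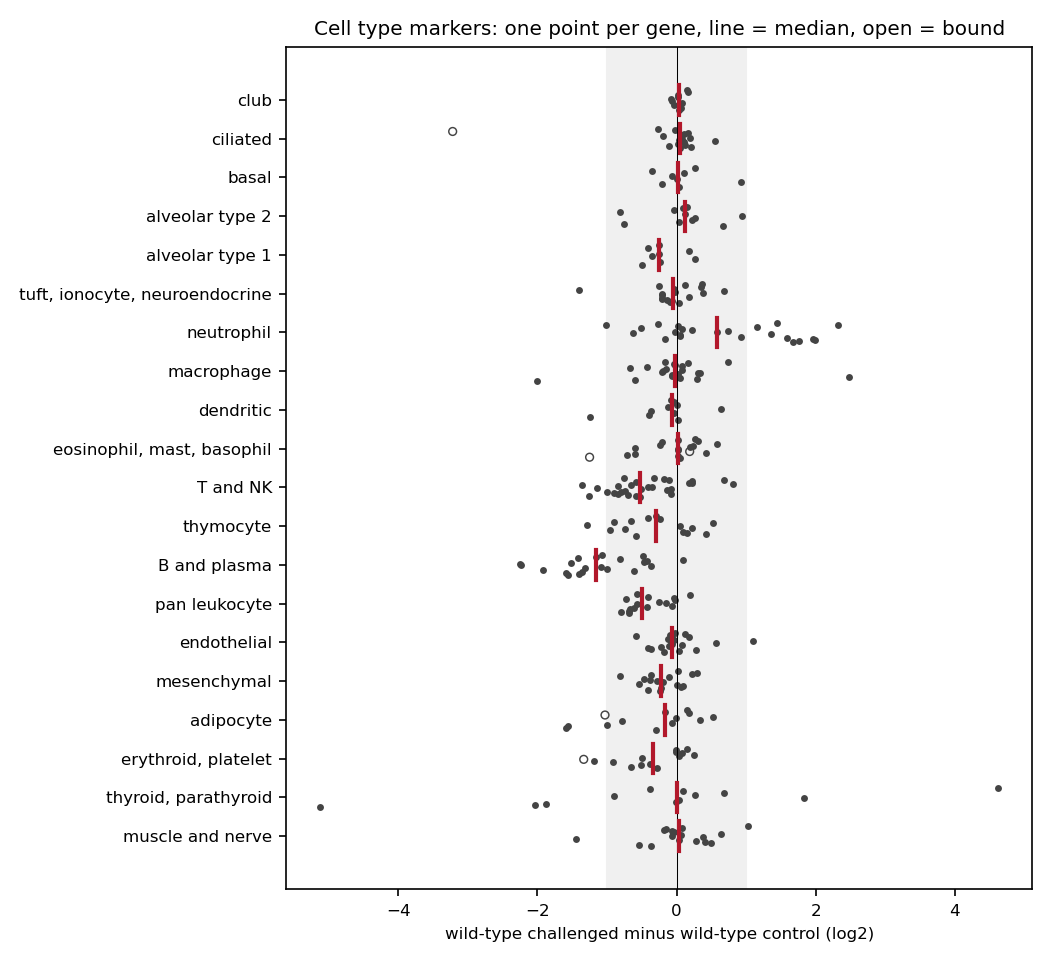
Wild-type challenged minus wild-type control (log2) for the measured markers of 20 cell types and tissues, 1 point per gene, open where only a bound is known, with the list median as a red line and the range within 2-fold in grey. Club, ciliated and basal markers cluster at 0, neutrophil markers spread to the right (median 0.58) and B and plasma cell markers to the left (median −1.15).

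The remaining genes that differed most in wild type included further inflammatory and some unrelated transcripts. Slfn4, a myeloid Schlafen gene, gave 142 units in challenged wild-type cells against 14.1 in wild-type control cells (3.47), and the long non-coding RNA Mirt2 91.2 units in challenged against 11.9 in control wild-type cells (3.08). Lbhd2 read 1363 units in challenged against 210 in control wild-type cells (2.83). Bounds upward also came from Faiml, Mbd3l2, Vstm2a and Mbd3l1, at least 3.51, 3.27, 3.05 and 3.00 higher, all from dim probes. On the lower side most genes were dim, such as Olfr982 (−2.80), Glycam1 (12.9 units in challenged against 80.1 in control wild-type cells, −2.50), Sbspon (13.7 units in challenged against 83.5 in control wild-type cells, −2.47), Trim69 (13.9 units in challenged against 82.5 in control wild-type cells, −2.43) and Serpinb7 (−2.01). These 5 were under 2-fold with the normexp setting, as were Gpr174 and Art2b. The B-cell genes Fcrl1 (−2.25) and Tnfrsf13c (−2.23) and the nucleoside transporter gene Slc28a2b (−1.93) completed the 15 largest downward differences with those given above. Bright genes lower by 2-fold, chosen after their values were seen, included Timp3 (12432 units in challenged against 28988 in control wild-type cells, −1.09) and Ccn2 (19143 units in challenged against 44574 in control wild-type cells, −1.08). Bright higher genes of the same kind were the lipoxygenase gene Alox12e (23579 units in challenged against 6304 in control wild-type cells, 2.04) and Chil1 (9897 units in challenged against 2743 in control wild-type cells, 1.99).

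**Figure D4:**
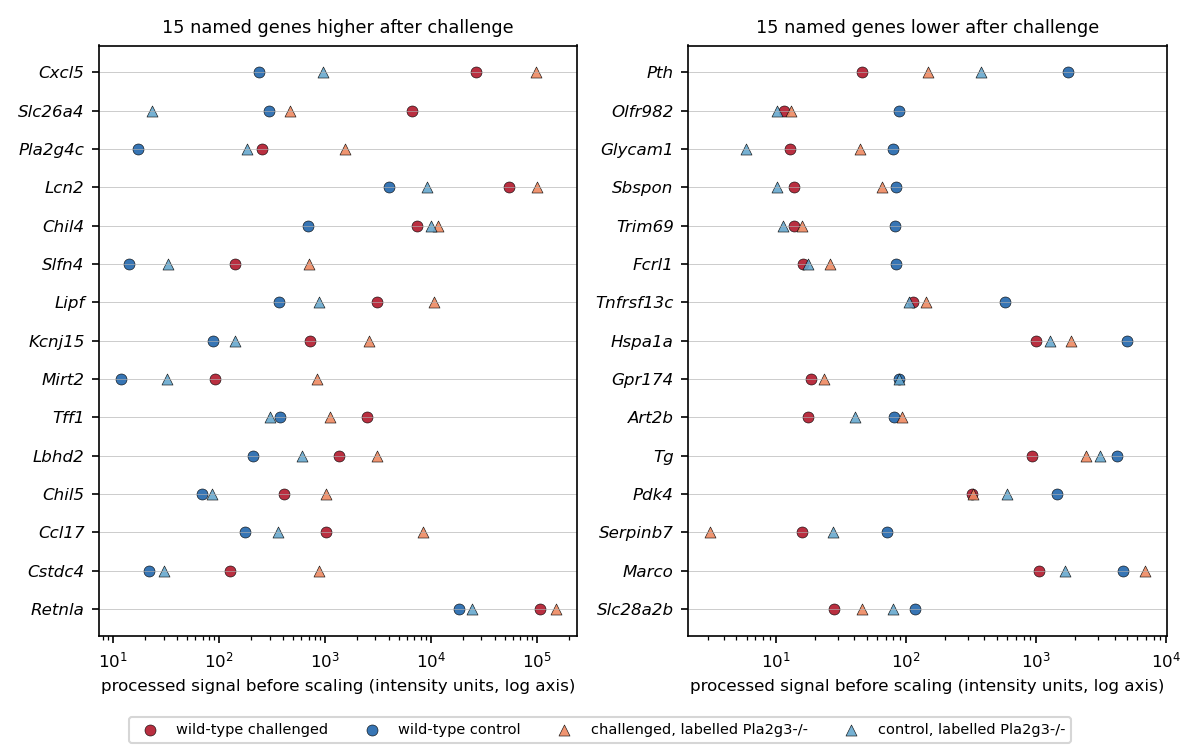
Processed signal (log axis, before scaling) of the 15 named genes with the largest upward (left panel) and downward (right panel) difference in wild type, circles for the wild-type arrays and triangles for those labelled Pla2g3-/-, red shades challenged and blue shades control, with signals not above background drawn at their measured value. On the left the wild-type challenged circle lies well right of the control circle for each gene (Cxcl5, 26473 units in challenged against 238 in control wild-type cells), and on the right several genes have the wild-type control circle standing alone at the right (Pth, 45.9 units in challenged against 1754 in control wild-type cells).

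The pair labelled Pla2g3-/- gave a further reading of challenge from separate arrays. It put 895 of 23025 measured genes past 2-fold upward (3.89%) and 796 past it downward (3.46%). Of 359 genes at least 2-fold higher in wild type and measured in both pairs, 176 were at least 2-fold higher in the other pair (49.0%, against 3.42% of all genes measured in both) and 50 were at least 2-fold lower (13.9%). Of 347 genes at least 2-fold lower in wild type, 83 were lower in the other pair (23.9%, against 3.30%) and 44 were higher (12.7%). Over all 4 arrays, 171 of 240 genes that were higher in wild type and above background throughout had both challenged arrays above both controls, and 104 of 213 lower genes had both below. Among those 213 lower genes the wild-type challenged array was the lowest of the 4 for 148 and the wild-type control array the highest for 130, and among the 240 higher genes the wild-type control array was the lowest for 156, counts that the choice of these genes by the same arrays favours. Set against the control labelled Pla2g3-/- instead, 111 of the 240 higher genes stayed at least 2-fold higher and 83 of the 213 lower genes stayed at least 2-fold lower. With 1 array a group, the difference between the pairs was not tested.

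**Figure D5:**
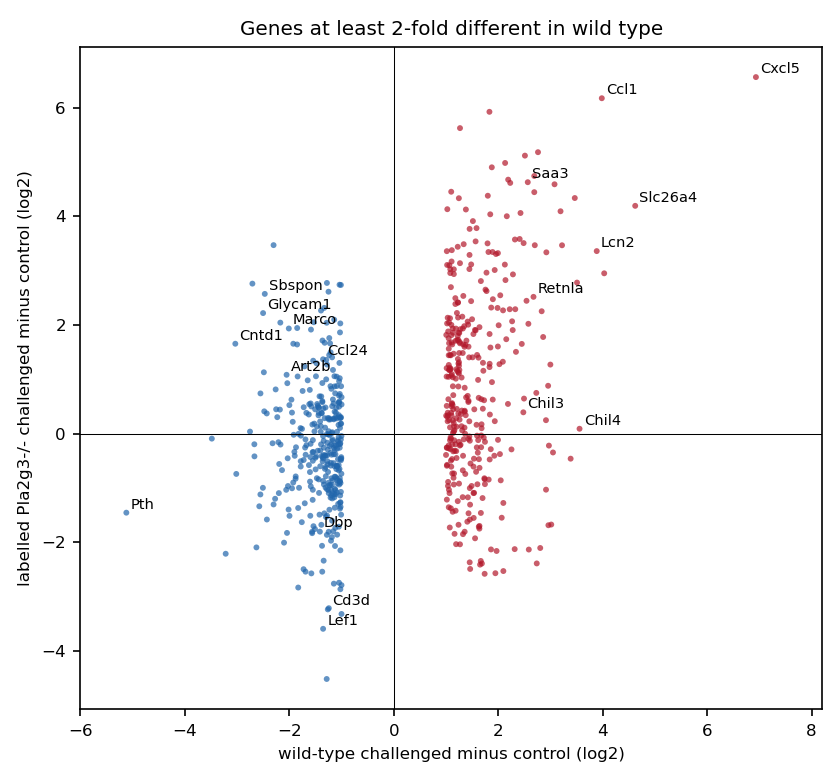
Challenged minus control (log2) in the pair labelled Pla2g3-/- (vertical axis) against that in wild type (horizontal axis) for 706 genes at least 2-fold different in wild type and measured in both pairs, bounds included, red for higher and blue for lower in wild type. Cxcl5, Slc26a4 and Lcn2 lie high in both, Chil4 lies near 0 on the vertical axis (0.09), and Marco lies on opposite sides (−2.01 and 1.94).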

How the data were processed

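Epithelial RNA was hybridised to 4 single-colour Agilent mouse arrays on 1 slide, each array 1 group, so array position and group cannot be told apart. Per the file headers, Agilent Feature Extraction 11.5.1.1 made the deposited intensity of each spot by spatial detrending of background and a multiplicative correction. Probe coordinates in the files are on mm9. The deposited series matrix held the same processed signals on a linear scale multiplied by a constant within each array (column medians 0.0850 to 0.0879), and served as an alternative. Control and outlier spots were left out, repeated spots were averaged, and 39429 probes remained, 3404 of them without a gene name. Of these probes 28330 took a current symbol from RefSeq and 11099 kept the file's name. Each array was then divided by its 75th percentile and log2 was taken. A gene took its brightest probe. Where the brightest probe was not well above background in 1 of the groups compared, the difference is a bound against the higher of its own signal and the lowest detected signal. No spot was saturated. A gene was called higher or lower at 2-fold. The software was limma 3.58.1 in R 4.3.3 and pandas 2.3.3 in Python 3.11.15, and the scripts were tested on simulated data.

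The rule for named genes took the 15 largest measured differences in each direction among genes with an established symbol, above the dimmest 25% of detected probes and with all probes of 1 sign, the 5 largest bounds in each direction, and from each list up to 6 members furthest from 0 and 3 first-listed members. The members and lists were chosen with earlier results of these data known. Further list members (Arg1, Arntl, Atf4, Bpifa1, Calr, Camp, Canx, Creld2, Ddit4, Derl3, Dnajc3, Elane, Ero1b, Hsp90b1, Ifi27l2a, Il13ra2, Il4ra, Ltf, Pdia6, Pla2g4a, Postn, Psat1, Reg3g, Timp1 and Wfdc2) were named after their values were seen. Promoter windows came from a RefSeq table on GRCm38.p6 that held 15180 of the genes measured in wild type. Some list members are not reported here by name. Intervals of counting error do not apply to arrays, whose precision is limited by their number.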

Additional observations from a re-analysis of the deposited data

Results flagged for a closer look

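In all, 6 named genes were lower in challenged wild-type cells and at least 2-fold higher in challenged cells labelled Pla2g3-/-, each against its own control. Marco, a macrophage scavenger receptor, was at −2.01 in wild type and 1.94 in the other pair. Ccl24, an eotaxin, was at −1.35 and 1.37. Art2b, an ADP-ribosyltransferase of T cells, was at −2.05 and 1.08. Glycam1, a mucin-like glycoprotein, was at −2.50 and at least 2.22. Sbspon was at −2.47 and at least 2.57. Cntd1, with 71.8 units in wild-type control cells only, was at least 3.03 lower in wild type (−3.03) and higher by 1.65 in the other pair. With 1 array a group each group trivially moves 1 way, and the difference between the pairs was not tested. Except for Marco, whose 4 signals ran from 1046 to 6836 units, these genes were dim, with a highest signal of 143 units for Ccl24 in challenged cells labelled Pla2g3-/-.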

How the results depend on the processing

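The counts depended mainly on how dim signals were treated. With normexp background correction and an offset of 50, which shrinks dim differences by construction, 126 genes passed 2-fold upward and 57 downward, so that 68.9% of them were higher against 51.3% as reported. Genes above background on both wild-type arrays gave 259 and 255, since bounds were left out. With the control labelled Pla2g3-/- in place of the wild-type control, 526 were higher and 958 lower, a split of 35.4% higher. The cause was not tested. Quantile normalization, the mean of a gene's probes, outlier spots kept and the series matrix moved either count by less than 1.5 times. Apart from the setting with the control labelled Pla2g3-/-, no result changed sign while called. With that control some signs did change. Of 240 genes higher in wild type and above background throughout, 224 kept their sign, as did 179 of 213 such lower genes. Normexp left 75 of 123 named genes at 2-fold, quantile normalization 121, the probe mean 120, and the outlier and matrix settings all 123. Normexp lowered the medians of the CXCR2 list to 0.61, the alarmin list to 0.12 and the neutrophil markers to 0.35, and moved that of B and plasma cell markers to −0.73 and of mesenchymal markers to −0.02. No paired analysis was possible because each group had 1 array, and leaving out a replicate was likewise not possible. Dim probes set the limit, since 4393 genes had no value in wild type.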

Other observations

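Among the brightest 25% of genes, 27 passed 2-fold upward and 5 downward in challenged wild-type cells, and those named here were chosen after their values were seen. Higher genes outside the lists included the organic anion transporter gene Slco1a5 (1.24), the transcript AW112010 (1.62), Tnfaip2, a gene induced by tumour necrosis factor (1.19), Noxo1, an organiser of NADPH oxidase 1 (1.11), and the growth arrest gene Gadd45g (1.09).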
